A study of Homo sapiens with 6 samples.

Results

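The 9 genes described here encode enzymes of the pentose phosphate pathway and other enzymes that make NADPH: PGLS, PGD, RPIA, RPE, TKT, TALDO1, H6PD, IDH1 and NNT. They were chosen by name, with earlier results of these data known, and each symbol matched 1 of the 28008 genes in the table of RNA-Seq counts. All 9 were abundant enough to be among the 14292 genes tested. The cells were DU-145-DR, a docetaxel-resistant line derived from the prostate cancer line DU-145. They carried tet-MUC1shRNA, a hairpin against MUC1 that doxycycline (DOX) switches on. Its presence in both groups comes from the study's methods, since only the DOX-positive labels mention it. DOX-negative cells (n = 3 libraries) received 0.1% DMSO as vehicle, and DOX-positive cells (n = 3 libraries) received 500 ng/ml DOX. The comparison asks how these transcripts stood when MUC1, which encodes the membrane protein MUC1-C, was silenced. No library held a control hairpin with DOX, so DOX exposure and MUC1 silencing cannot be told apart, and all libraries came from a single resistant line.

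The pentose phosphate pathway branches from glycolysis at glucose 6-phosphate. Its oxidative branch makes NADPH and ribulose 5-phosphate, and its non-oxidative branch interconverts sugar phosphates, linking ribose 5-phosphate for nucleotide synthesis with the intermediates of glycolysis. NADPH is the reducing agent for fatty acid and cholesterol synthesis and for the enzymes that keep glutathione and thioredoxin reduced. Separate enzymes serve separate compartments: PGD and IDH1 make NADPH in the cytosol, H6PD in the lumen of the endoplasmic reticulum and NNT in the mitochondrion. The transcription factor NRF2 is known to drive several of these genes.

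The libraries held 15092691 to 23243713 counts. MUC1 counts were 387, 484 and 396 without DOX and 75, 74 and 66 with DOX, so the groups were far apart in the direction of the labels. In CPM (counts scaled to a common library total), MUC1 fell from 21.9 ± 2.58 to 3.86 ± 0.585 (SD, n = 3 each), which is -2.52 ± 0.146 (SE) as log2 fold change (edgeR adjusted p = 4.47e-11). All 5 epithelial markers listed for the line were called higher, and their summed level was 758 to 838 CPM without DOX and 1444 to 1517 CPM with DOX. The prostate luminal markers KLK3 and HOXB13 had 0 counts in every library. Of the leukocyte markers, PTPRC, CD3E and LYZ had at most 3 counts in any library, whereas CD68, also made by other cells, was called higher (log2 fold change 0.75, edgeR adjusted p = 8.39e-08) and carried the summed level from 91.4 to 106 CPM up to 158 to 179 CPM. Fibroblast markers summed to 4.19 to 4.84 CPM and 4.01 to 5.59 CPM, and neuroendocrine and endothelial markers were too low to test. The part of these marker changes in the results on the 9 enzymes was not tested.

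Of the 9 enzyme transcripts, 4 were called lower in DOX-positive cells and 0 were called higher at an edgeR adjusted p under 0.05. The 4 were NNT, TKT, RPE and TALDO1, at 71.6% to 88.2% of their DOX-negative means, so the falls were moderate. With 1 library left out in turn, edgeR called 3 of the 9 in 5 fits and 2 in the fit without DOX-positive replicate 2. At an unadjusted p under 0.05 edgeR had 5 of the 9 lower and 0 higher, beside 19.2% of all genes tested lower and 18.7% higher. DESeq2 called 4 lower and 0 higher. Of all genes tested, 26.7% were called in either direction, 13.7% lower and 13.0% higher. The median log2 fold change of the 9 transcripts was -0.18, beside -0.0034 over all genes tested. The CPM ranges of the groups did not overlap for 6 of the 9, of which 5 were lower and 1 was higher in DOX-positive cells. That number was 5 with total counts as the scale and 4 in the deposited length-scaled values (TPM). Over all genes tested, 39.8% did not overlap, 20.2% being lower and 19.5% higher. In these bulk libraries, fewer cells expressing a gene and less RNA per cell cannot be told apart.

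**Figure D1:**
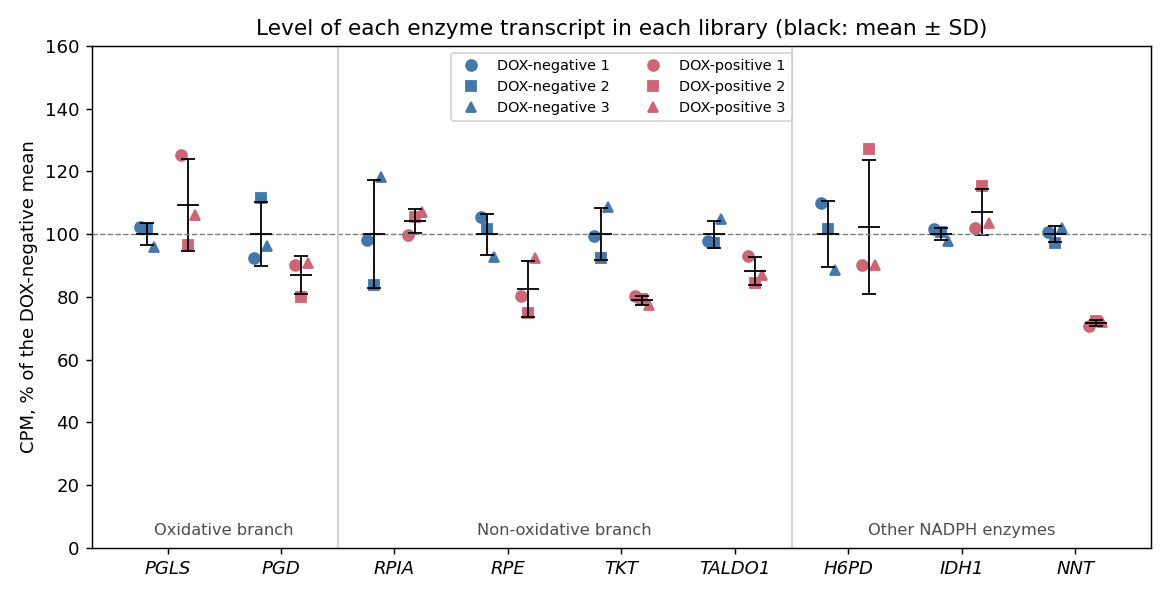
Level of each enzyme transcript in each library, as CPM in percent of the DOX-negative mean, with points for libraries and black bars for mean ± SD (n = 3). NNT and TKT show tight DOX-positive points below every DOX-negative point, NNT at 71.6% and TKT at 78.9% of the DOX-negative mean, whereas the H6PD, RPIA and PGLS points of both groups mix.

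The oxidative branch is represented by PGLS and PGD. PGLS, the lactonase that opens 6-phosphogluconolactone, lies on chromosome 19 at 17511629 to 17521288 (GRCh38, plus strand) in 5 exons. Its level was 10.2, 10.1 and 9.55 CPM without DOX and 12.5, 9.61 and 10.6 CPM with DOX. The groups overlapped, since 1 DOX-positive library lay among the DOX-negative values. The means were 9.95 ± 0.349 and 10.9 ± 1.45 CPM (SD, n = 3), and the log2 fold change was 0.13 (SE 0.135, edgeR adjusted p = 0.510). The 95% interval of that difference, -0.15 to 0.41 on the log2 scale, leaves room for a small change either way.

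PGD, the dehydrogenase that decarboxylates 6-phosphogluconate and yields NADPH, lies on chromosome 1 at 10398592 to 10420144 (plus strand) in 13 exons. PGD stood at 136, 164 and 141 CPM in DOX-negative cells and at 133, 118 and 133 CPM in DOX-positive cells. The groups did not overlap, but the nearest libraries were only a few CPM apart. PGD averaged 147 ± 14.8 CPM and then 128 ± 8.92 CPM, 86.9% of the DOX-negative mean. It narrowly missed the threshold (log2 fold change -0.20, SE 0.0757, 95% interval -0.36 to -0.045, edgeR adjusted p = 0.0515). Without DOX-negative replicate 1 it was past the threshold (log2 fold change -0.26, edgeR adjusted p = 0.0404), as it was with total counts as the scale (edgeR adjusted p = 0.0253), with no filter on low counts (edgeR adjusted p = 0.0277) and with at least 10 counts required in every library (edgeR adjusted p = 0.0466). PGD moved further from the threshold without DOX-negative replicate 2, its highest library (log2 fold change -0.12, edgeR adjusted p = 0.273). The same held without DOX-positive replicate 2 (log2 fold change -0.15, edgeR adjusted p = 0.176) and with a replicate block (edgeR adjusted p = 0.112).

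In the non-oxidative branch, RPIA and RPE act first, on ribulose 5-phosphate. RPIA, the isomerase that makes ribose 5-phosphate, lies on chromosome 2 at 88691644 to 88750935 (plus strand) in 9 exons. Its values were 19.4, 16.6 and 23.4 CPM without DOX and 19.7, 20.9 and 21.2 CPM with DOX. All 3 DOX-positive values lay inside the wide DOX-negative range. RPIA averaged 19.8 ± 3.42 and 20.6 ± 0.762 CPM (log2 fold change 0.055, SE 0.117, 95% interval -0.19 to 0.30, edgeR adjusted p = 0.777). Without DOX-negative replicate 2 the sign turned to -0.058 (edgeR adjusted p = 0.776).

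RPE, the epimerase that makes xylulose 5-phosphate from the same substrate, lies on chromosome 2 at 210002565 to 210022259 (plus strand) in 6 exons. RPE measured 44.3, 42.8 and 39.0 CPM in DOX-negative cells, followed by 33.7, 31.4 and 38.8 CPM in DOX-positive cells. The groups were apart, yet DOX-negative replicate 3 and DOX-positive replicate 3 were almost level. RPE fell from 42.0 ± 2.75 to 34.6 ± 3.76 CPM, 82.5% of the DOX-negative mean (log2 fold change -0.28, SE 0.0918, edgeR adjusted p = 0.0266). RPE dropped out of the calls when DOX-negative replicate 1 or 2 (edgeR adjusted p = 0.122 and 0.0646) or DOX-positive replicate 1 or 2 (edgeR adjusted p = 0.0849 and 0.0932) was removed. RPE reads can also be shared with copies. The intronless copy RPEL1 has a coding sequence of the same 684 bases, 97.5% of them identical to RPE, and it had 11, 4 and 5 counts in DOX-negative and 4, 9 and 4 counts in DOX-positive libraries. RPE itself had 577 to 836 counts per library, so the reads assigned to RPEL1 were few. The annotation also names 6 RPE pseudogenes, RPEP1 to RPEP6, for which no counts were listed. How reads shared between copies were counted is not given, and a loss of RPE reads to them was not tested.

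TKT, the transketolase that moves 2-carbon units between sugars with thiamine diphosphate as cofactor, lies on chromosome 3 at 53224707 to 53256052 (minus strand) in 14 exons. It gave 399, 371 and 437 CPM in DOX-negative libraries and 322, 319 and 311 CPM in DOX-positive libraries. Every DOX-positive library was well below every DOX-negative one, and the DOX-positive libraries lay close together. TKT fell from 402 ± 33.0 to 317 ± 5.91 CPM, 78.9% of the DOX-negative mean (log2 fold change -0.34, SE 0.0651, 95% interval -0.48 to -0.21, edgeR adjusted p = 0.000435). Leaving out any 1 library kept the call, with log2 fold changes of -0.40 to -0.28 and a largest edgeR adjusted p of 0.00397. The TKT-like genes TKTL1 and TKTL2 had 0 counts in all 6 libraries, which allows at most 0.202 CPM of either in the shallowest library by a limit of 3 counts, for counting error alone.

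TALDO1, the transaldolase that moves 3-carbon units, lies on chromosome 11 at 747329 to 765024 (plus strand) in 8 exons. TALDO1 was measured at 214, 213 and 230 CPM without DOX and at 204, 185 and 190 CPM with DOX. No DOX-positive library reached the lowest DOX-negative library. TALDO1 fell from 219 ± 9.44 to 193 ± 9.70 CPM, 88.2% of the DOX-negative mean (log2 fold change -0.18, SE 0.0636, 95% interval -0.31 to -0.048, edgeR adjusted p = 0.0395). TALDO1 likewise dropped out when DOX-negative replicate 1 or 3 (edgeR adjusted p = 0.0816 and 0.148) or DOX-positive replicate 2 or 3 (edgeR adjusted p = 0.106 and 0.120) was removed.

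H6PD, IDH1 and NNT make NADPH by other routes. H6PD, which carries out oxidative steps within the endoplasmic reticulum, lies on chromosome 1 at 9234775 to 9271337 (plus strand) in 5 exons. Its libraries stood at 63.0, 58.3 and 50.9 CPM and at 51.7, 72.9 and 51.7 CPM. DOX-positive replicate 2 was the highest of all 6, and the other DOX-positive libraries lay near the lowest DOX-negative one. H6PD averaged 57.4 ± 6.11 and 58.8 ± 12.3 CPM (log2 fold change 0.036, SE 0.110, 95% interval -0.19 to 0.26, edgeR adjusted p = 0.851). The sign turned without DOX-positive replicate 2, to a log2 fold change of -0.15 (edgeR adjusted p = 0.233), and without DOX-negative replicate 3, to -0.044 (edgeR adjusted p = 0.831).

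IDH1, the cytosolic and peroxisomal isocitrate dehydrogenase, lies on chromosome 2 at 208236227 to 208266074 (minus strand) in 10 exons. IDH1 levels of 206, 204 and 198 CPM in DOX-negative cells stood beside 206, 233 and 210 CPM in DOX-positive cells. The ranges did not overlap, with DOX-positive cells higher, but the closest libraries of the groups were less than 1 CPM apart. With total counts as the scale the IDH1 ranges overlapped. IDH1 averaged 202 ± 4.14 and 216 ± 14.8 CPM, 107% of the DOX-negative mean (log2 fold change 0.097, SE 0.0642, 95% interval -0.037 to 0.23, edgeR adjusted p = 0.287).

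NNT, the transhydrogenase of the inner mitochondrial membrane that makes NADPH from NADH with the proton gradient, lies on chromosome 5 at 43602692 to 43707405 (plus strand) in 22 exons. It had the lowest p among the 9, ranking 338 of the 14292 genes tested. NNT gave 145, 140 and 147 CPM in DOX-negative libraries and 102, 104 and 104 CPM in DOX-positive libraries. The groups were apart by far more than the spread within either. NNT fell from 144 ± 3.52 to 103 ± 1.21 CPM, 71.6% of the DOX-negative mean (log2 fold change -0.48, SE 0.0636, 95% interval -0.61 to -0.35, edgeR adjusted p = 6.84e-06). With 1 library left out in turn the log2 fold change ran from -0.50 to -0.47, and NNT was called in each such fit.

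**Figure D2:**
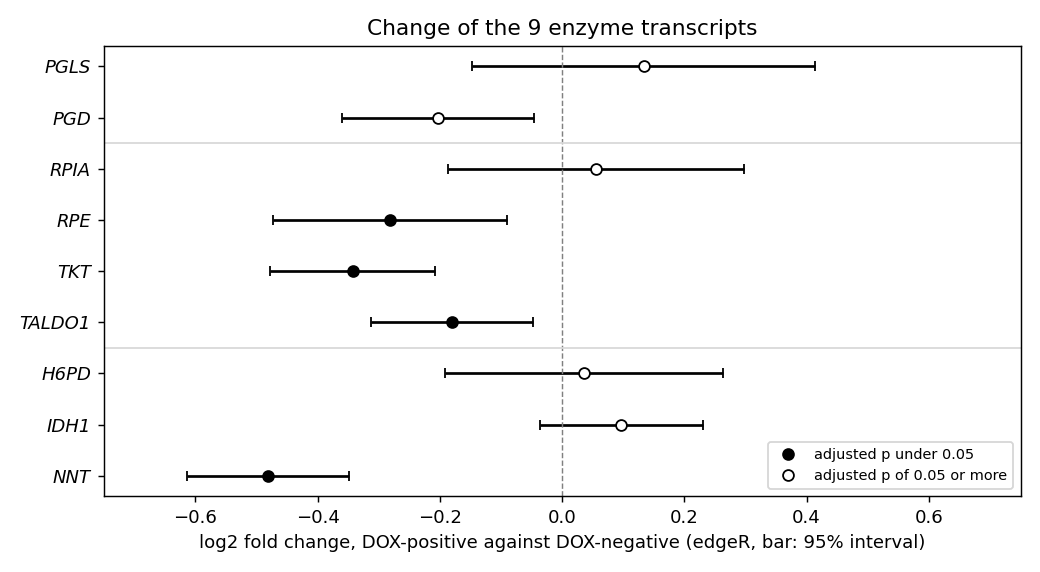
Log2 fold change of each enzyme transcript, DOX-positive against DOX-negative, with its 95% interval from edgeR and filled points for an adjusted p under 0.05. NNT (-0.48), TKT (-0.34), RPE (-0.28) and TALDO1 (-0.18) are filled and lie left of 0, while the PGD point is open although its interval ends at -0.045.

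Several of these genes share exons with a gene on the opposite strand. The libraries were prepared with a stranded kit, but whether the counting used strand is not given in the sources used here, so reads of such partners may be mixed. The NNT antisense gene NNT-AS1 had 859, 816 and 796 counts in DOX-negative and 820, 729 and 545 counts in DOX-positive libraries (log2 fold change -0.22, SE 0.0868, edgeR adjusted p = 0.0660). NNT itself had 1541 to 2953 counts per library. KANSL1L, which overlaps RPE, had 81 to 143 counts per library (log2 fold change 0.15, edgeR adjusted p = 0.558), and IDH1-AS1 had at most 5.

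RefSeq promoters (GRCh38.p14, 250 bases before to 50 after each start) were at hand for all 9 genes, 11 promoters in all, since IDH1 and NNT have a pair each. They were searched on both strands for the E-box CACGTG, which factors such as MYC bind, and for the antioxidant response element core TGACNNNGC, which NRF2 binds. The E-box was found in 1 of the 11, the second NNT promoter, and in 7.26% of all 35116 promoters. The antioxidant core was found in the promoters of PGD, RPE and 1 of those of IDH1, and in 13.35% of all promoters. No match was found in the TKT, TALDO1, RPIA, H6PD or PGLS promoter. The H6PD window, chr1:9239597-9239896, lies inside the gene as annotated here (start 9234775), and so do the IDH1 windows. For H6PD and IDH1 the region before the annotated gene start was therefore not searched. The promoters of the lower genes with a match, and that of PGD, are shown 5′ to 3′ on the gene's strand with the match in capitals.
NNT, chr5:43602930-43603229, plus strand: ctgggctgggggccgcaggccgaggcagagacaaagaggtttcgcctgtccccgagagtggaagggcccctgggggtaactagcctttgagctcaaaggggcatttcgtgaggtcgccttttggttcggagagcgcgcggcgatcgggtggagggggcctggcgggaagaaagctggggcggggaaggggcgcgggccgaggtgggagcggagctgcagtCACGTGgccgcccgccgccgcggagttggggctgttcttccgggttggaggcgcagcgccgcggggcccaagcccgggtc
RPE, chr2:210002388-210002687, plus strand: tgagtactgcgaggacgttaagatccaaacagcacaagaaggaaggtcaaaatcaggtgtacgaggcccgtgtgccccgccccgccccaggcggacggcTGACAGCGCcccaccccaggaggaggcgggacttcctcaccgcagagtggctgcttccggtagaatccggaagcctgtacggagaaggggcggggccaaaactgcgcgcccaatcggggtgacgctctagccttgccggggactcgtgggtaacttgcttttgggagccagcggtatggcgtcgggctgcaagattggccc
PGD, chr1:10398814-10399113, plus strand: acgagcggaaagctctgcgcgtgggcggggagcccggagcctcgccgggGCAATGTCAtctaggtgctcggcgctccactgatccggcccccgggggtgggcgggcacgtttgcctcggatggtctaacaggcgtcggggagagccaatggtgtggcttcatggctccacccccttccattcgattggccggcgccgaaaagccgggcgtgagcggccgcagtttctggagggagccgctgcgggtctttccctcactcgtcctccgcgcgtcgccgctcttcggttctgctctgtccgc
The NNT match starts 30 bases before the transcription start, the RPE match 151 bases before it and the PGD match, which reads GCAATGTCA on this strand, 201 bases before it. Such a match is a run of letters in this window, and no binding was measured here.

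Levels of different genes were compared per length, in TPM (transcript reads scaled to gene length and to a common total), rescaled without 5 short noncoding RNAs. These 5 RNAs held 34.4% to 64.4% of the deposited TPM but 0.488% to 1.76% of the counts. In DOX-negative cells TALDO1 was the most abundant of the 9 at 587 ± 10.3 rescaled TPM (SD, n = 3), and H6PD was the least abundant at 16.4 ± 2.07. Between them came TKT at 369 ± 20.8, IDH1 at 209 ± 9.28, PGD at 168 ± 19.9, NNT at 81.3 ± 1.12, PGLS at 34.2 ± 2.05, RPE at 33.6 ± 2.93 and RPIA at 32.8 ± 4.81 rescaled TPM. The ranges of neighbours in this order were apart except between PGLS and RPE and between RPE and RPIA. The non-oxidative branch thus held both of the most abundant transcripts and a pair of low ones.

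**Figure D3:**
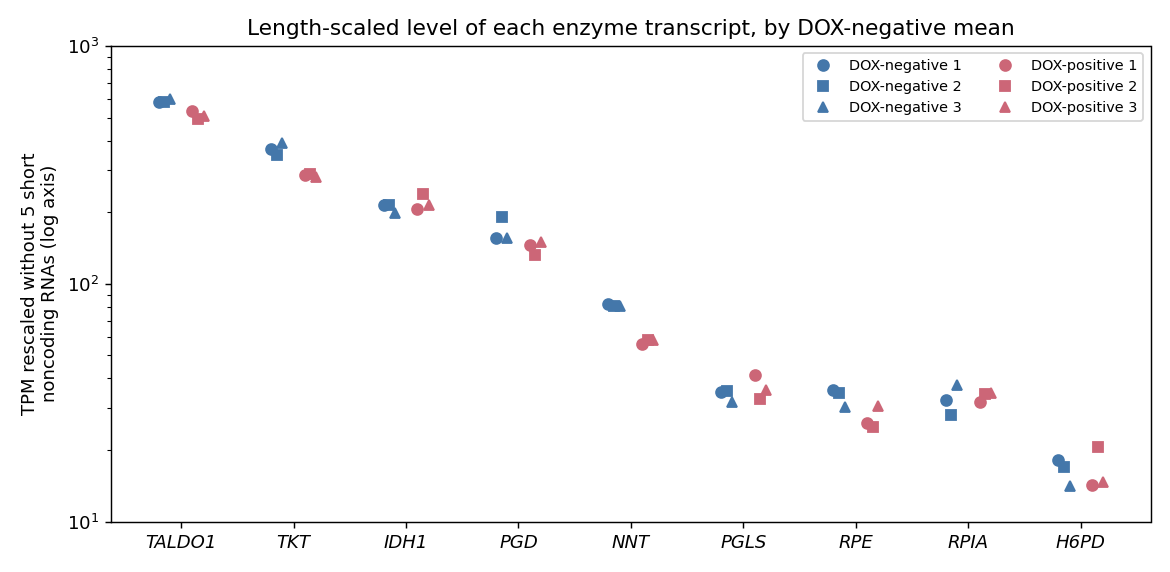
TPM rescaled without 5 short noncoding RNAs, on a log axis, for each enzyme transcript in each library, ordered by the DOX-negative mean. TALDO1 stands highest at 587 and 510 and H6PD lowest at 16.4 and 16.5 rescaled TPM in DOX-negative and DOX-positive cells, and the order of the 5 most abundant transcripts is the same in both groups.

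In DOX-positive cells the order was unchanged down to PGLS, at 510 ± 19.5 for TALDO1, 286 ± 3.58 for TKT, 219 ± 16.9 for IDH1, 143 ± 9.31 for PGD, 57.3 ± 1.44 for NNT and 36.7 ± 4.47 for PGLS in rescaled TPM. RPIA at 33.7 ± 1.67 then stood above RPE at 27.2 ± 3.09, and H6PD stayed lowest at 16.5 ± 3.57. RPIA and RPE thus changed places, with ranges that overlapped in DOX-negative cells and were apart in DOX-positive cells. TKT made up 24.1% of the 9 genes' summed rescaled TPM in DOX-negative cells and 21.5% in DOX-positive cells, NNT 5.31% and 4.31%, and IDH1 13.6% and 16.5%. TALDO1 held 38.4% and 38.3%, so its share stayed level while its own amount was lower.

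Summed by branch, the difference lay mostly in the non-oxidative genes. RPIA, RPE, TKT and TALDO1 together gave 1016, 994 and 1056 rescaled TPM in DOX-negative libraries and 875, 841 and 855 in DOX-positive libraries, a mean of 1022 ± 31.4 against 857 ± 16.9 (SD, n = 3). PGLS and PGD together gave 191, 226 and 188 in DOX-negative and 188, 165 and 186 in DOX-positive libraries, and the nearest libraries of the groups were less than 1 apart. H6PD, IDH1 and NNT together gave 314, 312 and 293 and then 276, 317 and 287, with overlapping groups, in which the lower NNT stood beside an IDH1 mean that was not lower. All 9 genes summed to 1530 ± 7.99 and 1330 ± 7.42 rescaled TPM. These sums weigh TALDO1 and TKT most, and no test was run on them.

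The direction of 4 of the 5 transcripts that were not called depends on the scale, as the plot of alternatives shows. In the deposited TPM, where the 5 short RNAs are part of the total, the median log2 fold change of all genes was -0.32, and all 9 transcripts were lower, PGLS, RPIA, H6PD and IDH1 included, with 0 of them called by limma. TKT had a log2 fold change of -0.73 (limma adjusted p = 0.109) and NNT of -0.85 (limma adjusted p = 0.0688) on that scale. Relative to the median of all genes, NNT and TKT were thus lower on both scales. With the short RNAs removed, limma called TKT, TALDO1 and NNT lower, and RPE had a limma adjusted p of 0.0557.

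**Figure D4:**
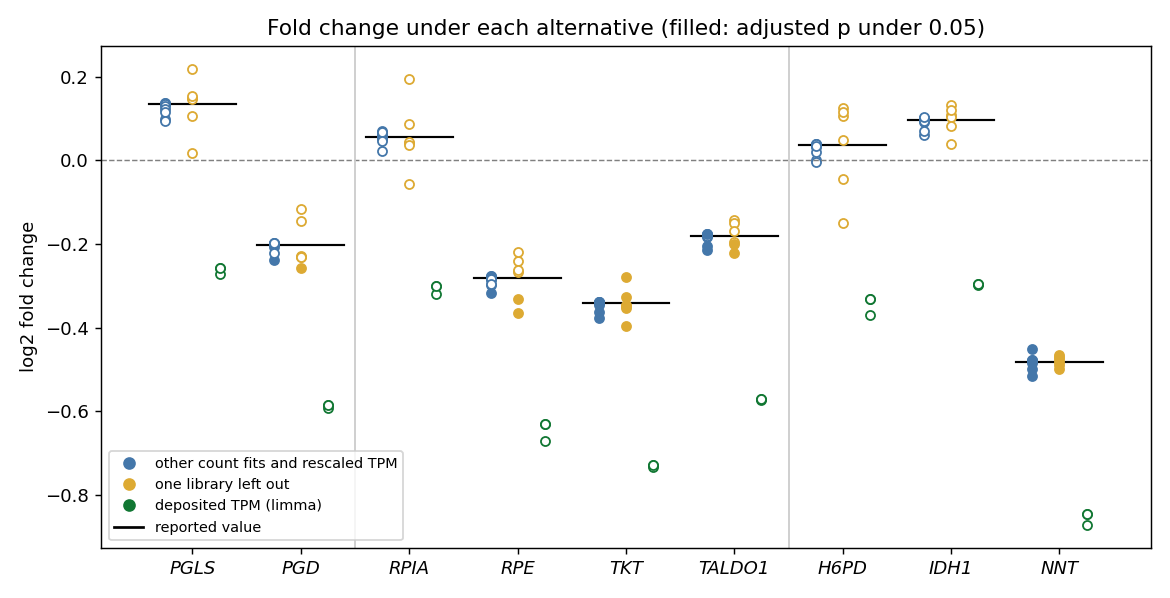
Log2 fold change of each enzyme transcript under 17 alternatives, with a black line for the reported value and filled points for an adjusted p under 0.05. NNT and TKT are filled under all fits but those on deposited TPM, where every point, those of PGLS, RPIA, H6PD and IDH1 included, lies below 0 and is open beside a median of -0.32 or -0.39 for all genes.

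Neighbouring steps of the pathway moved in both directions. Of 16 listed genes, 13 were tested, with 3 called higher, 3 called lower and a median log2 fold change of 0.018. The share called was 46.2%, beside 26.7% of all genes tested. The 3 higher genes encode kinases. RBKS, the ribokinase, rose from 3.08 ± 0.462 to 5.24 ± 0.226 CPM (edgeR adjusted p = 0.00562). SHPK, which phosphorylates sedoheptulose, rose from 14.7 ± 0.812 to 21.1 ± 0.888 CPM (edgeR adjusted p = 0.000745). IDNK, the gluconokinase, rose from 2.54 ± 0.393 to 4.02 ± 0.608 CPM (edgeR adjusted p = 0.0340), a call that removing DOX-negative replicate 1 or 3 (edgeR adjusted p = 0.0894 and 0.110) or DOX-positive replicate 2 or 3 (edgeR adjusted p = 0.123 and 0.0604) ended, as did thinning to the smallest total (edgeR adjusted p = 0.0660). Of the 3 lower genes, 2 encode enzymes of sugar phosphates. GPI, which interconverts glucose 6-phosphate and fructose 6-phosphate, fell from 775 ± 43.0 to 661 ± 63.0 CPM (edgeR adjusted p = 0.0198), but not past the threshold without DOX-negative replicate 3 (edgeR adjusted p = 0.0846) or DOX-positive replicate 2 (edgeR adjusted p = 0.111). FBP1, the gluconeogenic fructose bisphosphatase, fell from 5.06 ± 0.726 to 3.17 ± 0.257 CPM (edgeR adjusted p = 0.0147), a call lost without DOX-negative replicate 1 (edgeR adjusted p = 0.0866) or DOX-positive replicate 1 (edgeR adjusted p = 0.0667). PRPSAP2, which associates with the synthetase that uses ribose 5-phosphate, fell from 42.1 ± 2.67 to 34.7 ± 0.153 CPM (edgeR adjusted p = 0.0157), and its adjusted p was 0.101 without DOX-negative replicate 1 by edgeR.

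A further list held genes linked to the supply of NADPH and NADP, not all of which make NADPH. Of its 14 genes, 13 were tested, with 2 called higher, 1 called lower and a median log2 fold change of 0.15. Calls made up 23.1% of the list, near the 26.7% of all genes tested. Of the 13, 2 had a negative log2 fold change. ALDH1L2, the mitochondrial formyltetrahydrofolate dehydrogenase that yields NADPH, rose from 50.1 ± 6.20 to 79.4 ± 17.6 CPM (log2 fold change 0.66, SE 0.115, edgeR adjusted p = 0.000164). MTHFD1L, of mitochondrial folate metabolism, rose with a log2 fold change of 0.29 (edgeR adjusted p = 0.0333), with overlapping groups. That call ended on removing DOX-negative replicate 1 or 3 (edgeR adjusted p = 0.153 and 0.115) or DOX-positive replicate 2 or 3 (edgeR adjusted p = 0.127 and 0.0752), with total counts as the scale (edgeR adjusted p = 0.0696) and on rescaled TPM (limma adjusted p = 0.157). ME1, the cytosolic malic enzyme, fell from 147 ± 1.03 to 131 ± 2.67 CPM (log2 fold change -0.17, edgeR adjusted p = 0.0449), and only leaving out DOX-positive replicate 2 kept that call among the 6 such fits, whose edgeR adjusted p ran from 0.0497 to 0.152. ME1 was also not called with RLE factors (edgeR adjusted p = 0.0516) or with no filter on low counts (edgeR adjusted p = 0.0761).

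Genes that spend NADPH were listed as reductases and as enzymes of lipid synthesis. Of 12 NADPH-using reductases, all tested, 3 were called lower and 1 higher, with a median log2 fold change of -0.091. Calls made up 33.3% of this list, near the 26.7% of all genes tested. GSR, the glutathione reductase, fell from 326 ± 11.02 to 234 ± 9.37 CPM (log2 fold change -0.48, SE 0.0611, edgeR adjusted p = 4.66e-06), a change of the size seen for NNT. CRYZ, a quinone reductase, fell by 0.74 on the log2 scale (edgeR adjusted p = 1.99e-06), and CBR1, a carbonyl reductase, fell by 0.31 (edgeR adjusted p = 0.00229). TXNRD3, a thioredoxin reductase, rose by 0.35 (edgeR adjusted p = 0.0282), a call that ended on removing DOX-negative replicate 1 or 3 (edgeR adjusted p = 0.0541 and 0.112) or DOX-positive replicate 1 or 2 (edgeR adjusted p = 0.0505 and 0.0707), with total counts as the scale (edgeR adjusted p = 0.0529) and on rescaled TPM (limma adjusted p = 0.0618).

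Of 8 NADPH-using enzymes of lipid synthesis, 6 were called higher and 1 lower, with a median log2 fold change of 0.28. The share called was 87.5%, beside 26.7% of all genes tested. This list, like the others, was chosen with earlier results of these data known, so the comparison is not independent. FASN, the fatty acid synthase, rose from 426 ± 19.0 to 499 ± 19.6 CPM (log2 fold change 0.23, edgeR adjusted p = 0.00849). The sterol enzymes TM7SF2, MSMO1 and DHCR7 rose by 0.43, 0.29 and 0.27 on the log2 scale (edgeR adjusted p = 0.000801, 0.00348 and 0.00573), and DHCR7 lost its call without DOX-positive replicate 1 (edgeR adjusted p = 0.0559). LBR, a sterol reductase that is also a receptor for lamin B in the nuclear envelope, fell from 154 ± 6.13 to 97.1 ± 2.62 CPM (log2 fold change -0.67, edgeR adjusted p = 9.69e-08).

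Of 6 genes of the NRF2 axis, 2 were called lower and 1 higher, with a median log2 fold change of 0.083. The share called was 50% of this short list, beside 26.7% of all genes tested. NFE2L2, which encodes NRF2, fell from 200 ± 6.60 to 164 ± 9.03 CPM (log2 fold change -0.29, edgeR adjusted p = 0.00196). KEAP1, which marks NRF2 for degradation, fell from 52.9 ± 5.996 to 40.9 ± 2.20 CPM (log2 fold change -0.37, edgeR adjusted p = 0.00318). BACH1, a repressor at the same elements, rose from 148 ± 8.30 to 180 ± 1.55 CPM (log2 fold change 0.28, edgeR adjusted p = 0.00223). NRF2 activity depends largely on protein stability, which these libraries did not measure.

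**Figure D5:**
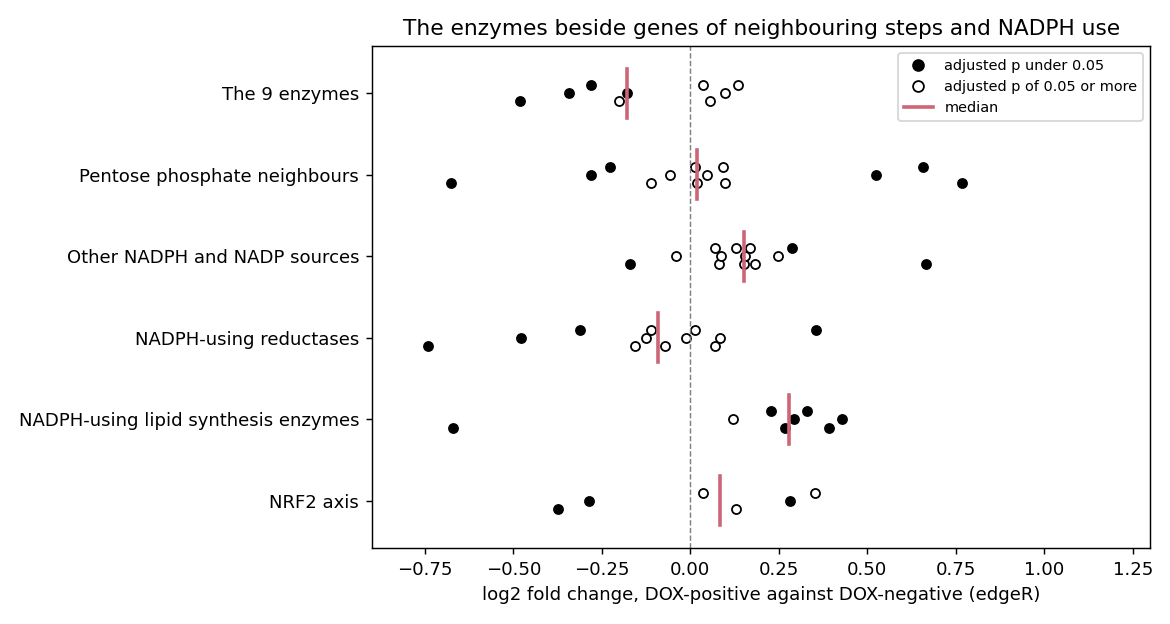
Log2 fold change of each tested gene of the 9 enzymes and of the 5 other lists, with filled points for an edgeR adjusted p under 0.05 and a bar for the list's median. Medians run from -0.18 for the 9 enzymes to 0.28 for lipid synthesis, where 6 of 8 points are filled and right of 0. On deposited TPM, among the genes named here, FASN, DHCR7, MSMO1, MTHFD1L, TXNRD3 and BACH1 of these lists fall below 0.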

How the data were processed

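Gene-level RNA-Seq of total RNA (TruSeq Stranded mRNA libraries) from 6 cultures was analysed, 3 DOX-negative and 3 DOX-positive, grouped by their sample titles. According to the submitters' processing notes, reads were aligned with STAR to GRCh38, and DESeq2 is named. The counting step and its strand setting are not given in the sources used here. The deposited counts are whole reads per gene and library, made by the authors and not normalized. The deposited TPM values were scaled by the authors for gene length and to a fixed total per library, and they cover 25546 genes (2462 of the counted genes are absent). The column headers abbreviate the line differently from the titles, and columns were matched by treatment and replicate number. Neither table lists a mitochondrially encoded gene. Library totals were 17947568, 19028332 and 20205987 (DOX-negative) and 23243713, 19352614 and 15092691 (DOX-positive) counts. After adjustment by the TMM factors, 3 counts correspond to 0.131 to 0.202 CPM.

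Genes were filtered with filterByExpr, scaled by TMM and tested two-sided with edgeR 4.0.16 (R 4.3.3; glmQLFit and glmQLFTest, group as the only term), with Benjamini-Hochberg adjustment over all genes tested and calls at an adjusted p under 0.05. Standard errors were derived from each F statistic, as the size of the log2 fold change over the root of F. Log2(TPM + 1) and log2(TPM + 0.1) values were tested with limma 3.58.1, also after removal of 5 short noncoding RNAs and rescaling, and counts with DESeq2 1.42.0. Other alternatives were RLE factors, total counts, no filter, a minimum of 10 counts in every library, thinning to the smallest total, a replicate block and leaving out each library in turn. Exact permutation of 3 against 3 libraries cannot go below p = 0.1, so none is given. Cultures are called triplicates in the labels, with no statement on independence, so p-values measure the spread between these cultures only. Replicates of a group differed by more than counting noise (chi-square per degree of freedom 3.78 to 20.2), and none was merged.

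The 9 genes and the pathway and marker lists were chosen with earlier results of these data known. Named genes are the 9, MUC1, list members past the threshold (some genes and a sequence search are not reported here), and copies and antisense partners of the 9; KANSL1L was added for its overlap with RPE, and the marker genes printed were named after their values were seen. Gene coordinates are from GENCODE 29, and promoters are RefSeq. Protein sequences were not used here.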

Additional observations from a re-analysis of the deposited data

How the results depend on the processing

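Of 544 alternative values for the 32 single genes other than MUC1, 407 kept their direction and side of the threshold, 94 lost the call, 6 gained one and 37 reversed. Of those 131 losses and reversals, 85 came from the 3 fits on deposited TPM, whose median over all genes was -0.32 with 1 TPM added and -0.39 with 0.1 added. There limma called 443 genes (30 higher, 413 lower) with 1 TPM added and 408 (29 higher, 379 lower) with 0.1 added. Without the filter limma called 0 of 19601 genes, with 2888 at an unadjusted p under 0.05, beside 408 to 4004 under the other alternatives by edgeR, DESeq2 or limma; MUC1 then had a log2 fold change of -2.48 and an adjusted p of 0.112. None (0) of the 9 enzymes was called in those 3 fits (5, 5 and, without the filter, 3 were lower at an unadjusted p under 0.05), while limma called 3 on rescaled TPM. Reversed log2 fold changes there, with 1 TPM and with 0.1 TPM added, were -0.26 and -0.27 for PGLS, -0.30 and -0.32 for RPIA, -0.33 and -0.37 for H6PD, -0.30 and -0.30 for IDH1, -0.11 and -0.11 for BACH1, -0.12 and -0.13 for DHCR7, -0.17 and -0.17 for FASN, -0.099 and -0.0995 for MSMO1, -0.098 and -0.10 for MTHFD1L, -0.042 and -0.040 for TXNRD3 and -0.14 and -0.22 for KANSL1L, the unfiltered values being those with 1 TPM. H6PD also reversed on rescaled TPM (-0.0041). With 1 library left out H6PD ran from -0.15 to 0.12, reversed when DOX-negative replicate 3 (-0.044) or DOX-positive replicate 2 (-0.15) was removed, and RPIA ran from -0.058 (DOX-negative replicate 2 removed) to 0.195. The 5 short noncoding RNAs took 34.4% to 64.4% of the deposited TPM. Leaving out 1 library gave 2784 (without DOX-negative replicate 1) to 3645 (without DOX-positive replicate 2) calls over all genes, and 2 (without DOX-positive replicate 2) to 3 among the 9. With total counts, 1507 genes were called higher and 2329 lower, beside 1861 and 1955.

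Deviations of same-numbered libraries correlated at -0.070, -0.145 and -0.037, and those of differently numbered libraries at -0.086 to 0.129. These values show no positive link by replicate number, but they cannot settle whether the cultures were paired. With the replicate block, 3158 genes and 2 of the 9 enzymes (TKT and NNT) were called, RPE having an edgeR adjusted p of 0.0544, TALDO1 of 0.0902 and ME1 of 0.110.

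Among the 9 enzymes PGLS had the fewest counts per library, 157 to 286. The list genes IDNK (44 to 90 counts), FBP1 (49 to 105) and RBKS (50 to 119) were shallower still.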
